A study of Mus musculus with 4 samples.

Results

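The mitochondrial respiratory chain and ATP synthase were followed at the RNA level in the SCN (suprachiasmatic nucleus) of mice, a small nucleus of the hypothalamus that drives daily rhythms of the body. Members were the probesets assigned by the array's annotation to exactly 1 gene whose symbol starts with Nduf, with Sdh and a letter from a to d, with Uqcr, with Cox4 to Cox8, or with Atp5. The rule found 103 of the 41345 probesets, which stand for 93 of 22180 genes. Of these 93 genes, 82 reached the floor used to call a gene expressed, a log2 value of 6.02 on at least 1 array, as did 11090 genes in all. Any member close to that floor passed through its highest array. Sdhaf1 had its highest value just below it, at 6.01, and Ndufaf2 just above it, at 6.10. The other members below the floor were Ndufa4l2, Ndufb11, Atp5j2, Cox4i2, Cox6b2, Cox7b2, Cox8b, Cox8c and the pseudogenes Atp5c1-ps and Uqcrh-ps1.

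The 4 arrays stand for 4 groups: control mice (called non-HPX) at ZT2 (Zeitgeber time, in hours after lights-on, so soon after dawn), control mice at ZT14 (soon after dusk), and hypophysectomized mice (HPX, with the pituitary gland removed) at ZT2 and at ZT14. All mice were kept in 12 h of light and 12 h of darkness; strain, sex, age and the time after surgery are not stated in the labels, nor is a sham operation for the controls. SCN tissue cut out by laser was pooled from 10 animals per time point, and whether that number applies to each surgical state is not stated. Each group has 1 array, so a difference between 2 arrays has no replicate check and carries no error between animals.

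The chain passes electrons from NADH (complex I) or succinate (complex II) through ubiquinone to complex III, then through cytochrome c to complex IV, which reduces oxygen. Complexes I, III and IV pump protons, and complex V, the ATP synthase, uses the proton gradient to make ATP. Most subunits are encoded in the nucleus and a few in mitochondrial DNA, so each complex except II is built from both genomes. Neurons draw most of their ATP from this pathway, and in the SCN the firing rate, and with it the demand for ATP, is higher by day than by night. The nuclear subunit genes are known targets of the transcription factors NRF1 and GABP, and E-boxes are the sites bound by the clock's CLOCK and BMAL1 proteins.

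Promoters of the members were searched for motifs of known regulators, which the rule did not use. RefSeq promoters (assembly GRCm38.p6, from 250 bases before to 50 bases after the annotated start) were held for 76 of the 93 genes. The NRF1 core CGCATGCG stood in 11 of the 76, or 14.5%, against 2.07% of 27025 genes. The ETS-type motif bound by GABP, CCGGAAG, stood in 22, or 28.9%, against 9.93%, and the YY1 motif AAGATGGCG in 7, or 9.21%, against 1.64%. The CCAAT box (letters CCAAT) was as frequent in members as elsewhere, at 40.8% against 41.1%, and so was the E-box CACGTG, at 7.89% against 8.09%. The cAMP response element TGACGTCA stood in 3 members, or 3.95%, against 2.03%. Both strands were searched, and none of the motifs contains another. A match is a run of letters and not a shown binding site. In the following stretches of 170 bases the motifs are in capitals and the last base lies directly before the start. Atp5j (a stalk subunit of complex V; chr16:84834977-84835146, minus strand, 1 of its 2 starts) holds the NRF1, YY1 and ETS motifs together, Cox6a1 (complex IV; chr5:115348959-115349128, minus strand) holds NRF1, CCAAT and ETS motifs, Ndufa8 (complex I; chr2:36049339-36049508, minus strand) has an NRF1 core close to the start, and Ndufa7 (complex I; chr17:33824402-33824571, plus strand, 1 of its 2 starts) shows an E-box.
Atp5j: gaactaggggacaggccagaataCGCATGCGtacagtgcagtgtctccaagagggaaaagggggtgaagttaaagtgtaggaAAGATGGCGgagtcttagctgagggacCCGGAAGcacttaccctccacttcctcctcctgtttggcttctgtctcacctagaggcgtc
Cox6a1: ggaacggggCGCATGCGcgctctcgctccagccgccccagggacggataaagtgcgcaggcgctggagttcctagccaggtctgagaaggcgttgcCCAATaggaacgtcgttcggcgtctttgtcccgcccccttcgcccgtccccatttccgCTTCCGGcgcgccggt
Ndufa8: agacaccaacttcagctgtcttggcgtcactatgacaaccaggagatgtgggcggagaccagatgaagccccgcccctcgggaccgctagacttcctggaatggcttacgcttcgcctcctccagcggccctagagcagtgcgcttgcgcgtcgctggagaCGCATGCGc
Ndufa7: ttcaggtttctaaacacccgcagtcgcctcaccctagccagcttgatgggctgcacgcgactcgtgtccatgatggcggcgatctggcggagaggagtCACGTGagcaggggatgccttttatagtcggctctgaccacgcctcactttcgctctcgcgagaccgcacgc

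The deposited values are log2 expression values after robust multi-array averaging (RMA), which gives all arrays nearly 1 distribution: the array medians lay between 5.45 and 5.52. A shift shared by most genes is therefore not visible, and in such bulk tissue fewer cells of a type and less RNA per cell cannot be told apart. The label of the tissue was checked with 12 SCN neuron markers, of which 12 were expressed. Their summed log2 level lay between 13.56 and 13.75 on the 4 arrays, and Prok2, a rhythmic SCN output peptide, read 9.17 and 9.08 on the ZT2 arrays against 5.45 and 5.61 on the ZT14 arrays. Of the lists for other cells, neurons of neighbouring hypothalamic nuclei varied most, with a summed log2 level of 11.45 and 11.43 in non-HPX and 10.13 and 10.47 in HPX. The sum is taken over linear values, so Oxt, its highest marker in non-HPX, weighs most there. Oxt read 10.80 and 10.75 in non-HPX and 8.37 and 9.28 in HPX. Of the 6 expressed markers 5 were lower in HPX at ZT2 and 5 at ZT14. Npy was higher at ZT2 (0.07) and Hdc at ZT14 (0.27). The summed levels for astrocytes, oligodendrocytes, microglia, vessel cells and ependyma had ranges from 0.15 to 0.26 over the arrays, beside 0.12 for the members. Of the ependyma and choroid plexus list 3 of 6 measured markers were expressed, and the choroid plexus markers Ttr, Kl and Folr1 were below the floor on every array.

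Expression of the members differed little between arrays, and the HPX array at ZT14 read lowest for most of them. The gap between a member's highest and lowest array had a median of 0.22 on the log2 scale, against 0.24 for all expressed genes, and ran from 0.02 for Cox4i1 to 0.68 for Cox6a2. The HPX array at ZT14 held the lowest of the 4 values for 49 of the 82 members, or 59.8%, against 24.6% of all expressed genes. The non-HPX array at ZT2 held the highest value for 42 members, or 51.2%, against 31.3% of all genes. This count depends on the processing. When each array was centred on the median of the expressed genes, only 28 members read lower in HPX than in non-HPX at ZT2. The 42 therefore does not hold under centring. By complex, HPX at ZT14 was lowest for 21 of 31 members of complex I, 1 of 4 of complex II, 6 of 7 of complex III, 6 of 12 of complex IV and 8 of 16 of complex V. In complex II HPX at ZT2 was lowest for 3 of its 4 subunits, beside 39.4% of all expressed genes. For 1 of these 3, Sdhd, the HPX arrays at ZT2 and ZT14 read 8.30 and 8.30.

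**Figure D1:**
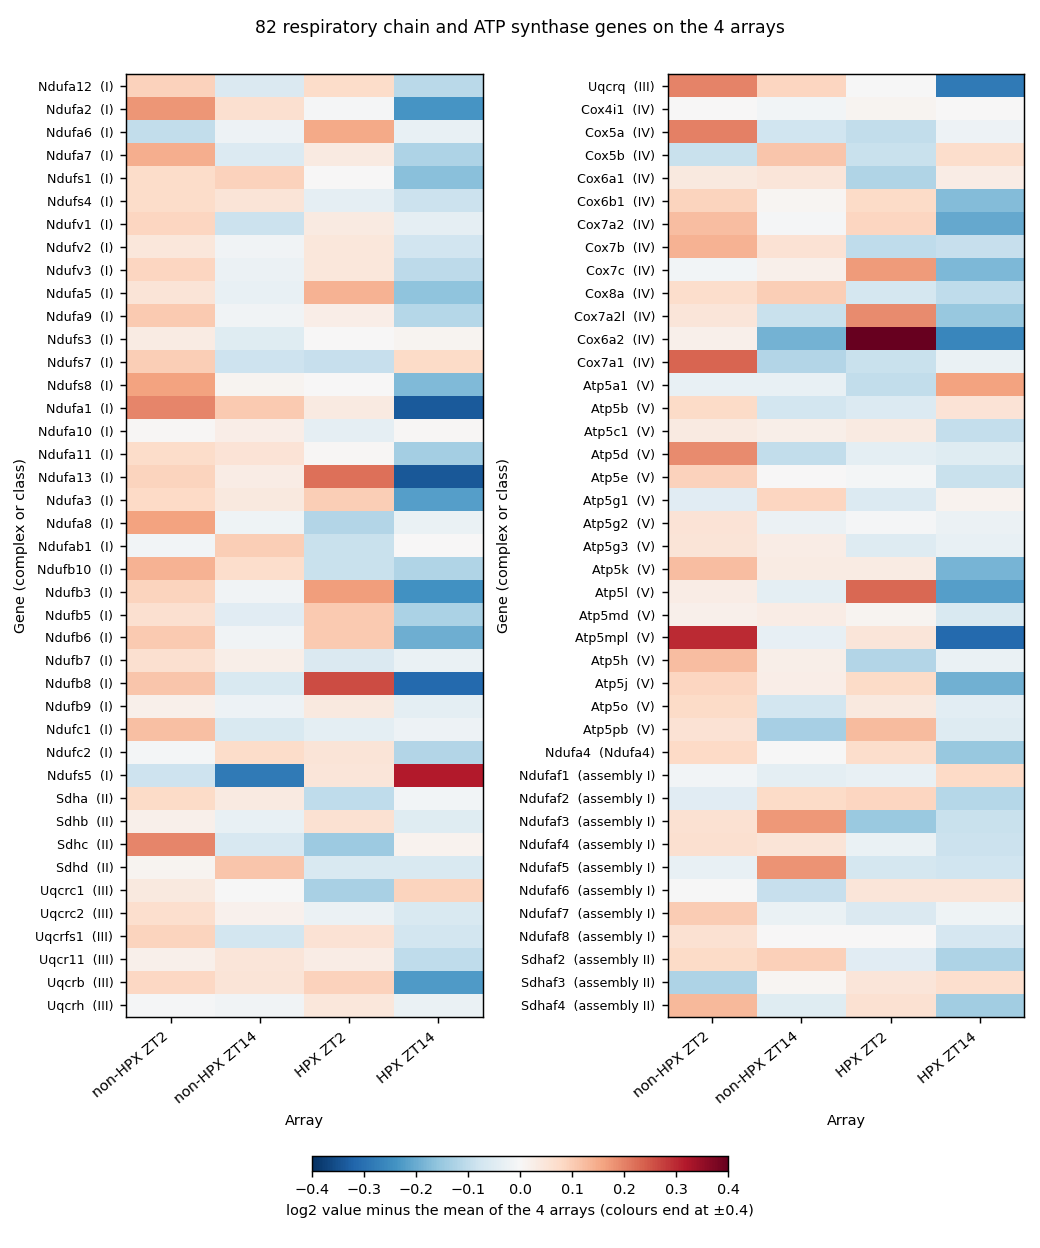
Each row is 1 of the 82 expressed members, with its complex or class in brackets, each column is 1 array, and the colour is the log2 value minus that gene's mean over the 4 arrays. The HPX ZT14 column holds the lowest value of 49 genes and is mostly blue, and the non-HPX ZT2 column holds the highest value of 42. The 42 does not hold when arrays are centred, where only 28 members read lower in HPX than in non-HPX at ZT2. Ndufs5 has its highest value on the HPX ZT14 array.

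In non-HPX mice the members read slightly lower at night than by day. The median log2 difference, night minus day, was -0.073 over the 82 members against -0.028 over all expressed genes. Of the members 64 were below 0, while 57.9% of all genes were. No member was at least 1.2-fold higher (background 4.28%) and 4 were at least 1.2-fold lower (background 8.21%): Atp5mpl at -0.33, Atp5d at -0.29, Cox5a at -0.28, and Cox7a1 at -0.34, which passed the floor only on the non-HPX ZT2 array where it is high. None was 1.5-fold apart, as were 1.12% of all genes.

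In HPX mice the night values were also lower, while the median of all genes lay slightly above 0 in the values as deposited. The median was -0.077 over the members and 0.043 over all expressed genes, and 55 members were below 0, against 41.2% of all genes. The all-gene median depended on the processing, with 0.021 under cyclic loess and -0.019 when arrays were centred. The member median was -0.114 and -0.138 in these 2 settings. At least 1.2-fold lower were 16 members (background 8.04%) and at least 1.2-fold higher was 1, Ndufs5 (background 14.4%). Ndufs5 reached the floor on the HPX arrays only. Cox6a2 alone was 1.5-fold apart (background 1.8%). Over both surgical states, which share no array in this comparison, 45 members were lower at night in each (background 25.4%) and 8 were higher in each (background 26.2%). The size of the difference was only loosely alike in the states: across the 82 members, which are not independent of each other, Pearson's r was 0.161 and Spearman's rho 0.156, beside 0.308 and 0.149 across all expressed genes.

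Hypophysectomy went with lower member values at ZT14 and with no clear shift at ZT2. For the members and for each complex, the ZT14 comparison uses the same HPX ZT14 array as the night difference in HPX. The 2 are therefore not separate results. At ZT14 the median of HPX minus non-HPX was -0.077 over the members against 0.012 over all genes, 63 members were below 0 (background 46.7%), 7 were at least 1.2-fold lower (background 5.3%) and 1 at least 1.2-fold higher (background 6.04%). That 1 gene, Ndufs5, was also the only member 1.5-fold apart (background 0.622%), and it reached the floor on the HPX arrays only, so the floor favoured a higher HPX value. At ZT2 the median was -0.049 against -0.061 over all genes, and 57 members were below 0 beside 65.6% of all genes. The ZT2 direction turned to 0.046 when each array was centred on the median of the expressed genes. At ZT2 4 members were at least 1.2-fold lower (background 11.6%), 1 was at least 1.2-fold higher (background 3.83%) and none was 1.5-fold apart (background 0.848%). Marker lists of cell types also differed at ZT14, where 46.7% of all genes were below 0. Median HPX minus non-HPX was -0.416 for neighbouring hypothalamic neurons (5 of 6 markers lower) and -0.152 for astrocytes (10 of 11 lower). It was -0.164 for oligodendrocytes (8 of 10 lower) and -0.142 for ependyma (3 of 3 lower). Above 0 were vessel cells at 0.263 (6 of 9 higher), SCN neurons at 0.14 (9 of 12 higher), general neurons at 0.098 (8 of 10 higher) and microglia at 0.015 (4 of 7 higher). The part of these lists in the member values was not tested. Lower in HPX at both times were 43 members (background 28.1%), and higher at both times were 5 (background 15.7%). These counts rest on the ZT2 direction, and under centring only 28 members were below 0 at ZT2, so the 43 does not hold there.

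No member passed a test over the 4 arrays. In an additive limma model of time and surgery over all 11090 expressed genes, 0 members had an adjusted p under 0.05 for time of day, for which 60 genes or 0.541% were called. For surgery 0 members were called among 15 genes or 0.135%. Unadjusted p-values under 0.05 were held by 4 members for time, all of them lower at night (Cox6a2, Atp5mpl, Ndufb8 and Ndufa13), and by 4 for surgery, of which Ndufs5, expressed on the HPX arrays only, was higher in HPX and Ndufa1, Uqcrq and Atp5mpl lower. The smallest Benjamini-Hochberg adjusted p of this limma fit was 0.317 among members for time and 0.916 for surgery. With an intensity trend in the model 0 were called and 5 members had an unadjusted p under 0.05 for each factor. Only 1 degree of freedom is left for error, and it is the time-by-surgery interaction.

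**Figure D2:**
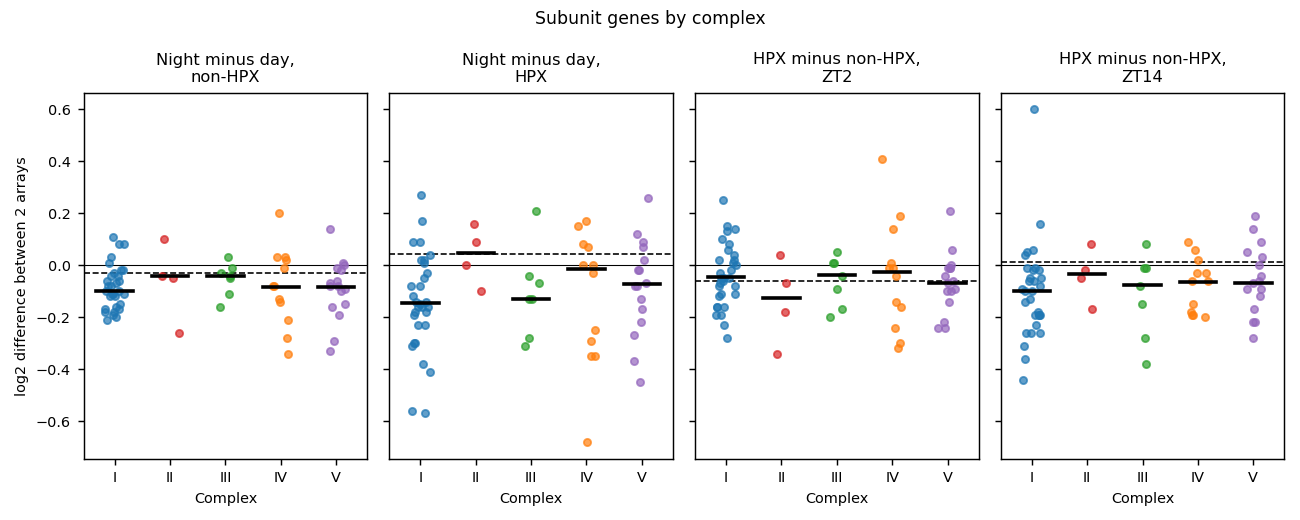
Each point is 1 expressed subunit gene, placed by complex (I to V) on the horizontal axis and by its log2 difference between 2 arrays on the vertical axis, in 4 panels for the 4 comparisons; thick bars are the medians of a complex and the dashed line is the median of all expressed genes. Most complex I points lie below 0 at night in HPX (median -0.145), and the ZT2 medians of complexes I, III, IV and V, here below 0, turn above 0 when arrays are centred.

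Complex I, which oxidises NADH, read lower at night in both surgical states for most of its subunits. Its 31 expressed subunits had a median night difference of -0.098 in non-HPX and -0.145 in HPX, with 26 and 23 of them below 0. HPX minus non-HPX was -0.045 at ZT2, a direction that turned under centring (0.049) and under cyclic loess (0.004), and -0.101 at ZT14. The 9 genes of the NADH-oxidising module were all lower at night in HPX, in a narrow range from -0.23 to -0.05 with a median of -0.155. The 5 genes of the ubiquinone-binding module were all lower at night in non-HPX, from -0.18 to -0.08. The membrane arm, with 17 expressed genes, had night differences in HPX from -0.57 to 0.27, and at ZT14 15 of its 17 genes were lower in HPX, with a median of -0.184.

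Membrane-arm accessory subunits held the largest differences of complex I at night in HPX and between the states at ZT14. Ndufb8, an accessory subunit of the membrane arm, read 7.09 in non-HPX at ZT2, 6.92 in non-HPX at ZT14, 7.24 in HPX at ZT2 and 6.67 in HPX at ZT14. Both night arrays lay below both day arrays. Its night difference was -0.17 in non-HPX and -0.57 in HPX (1.12-fold and 1.49-fold lower), and the limma time effect was -0.37 ± 0.13 (SE; adjusted p = 0.442). Ndufa13, also known as GRIM-19, read 9.25, 9.19, 9.38 and 8.82 in the same order of arrays. Its HPX ZT14 array alone was low, with a night difference of -0.56 in HPX against -0.06 in non-HPX (limma adjusted p for time = 0.596). Ndufa1, an essential small subunit encoded on the X chromosome, read 8.71, 8.62, 8.55 and 8.18, so that both HPX arrays were below both non-HPX arrays. Its difference between HPX and non-HPX was -0.16 at ZT2 and -0.44 at ZT14, with a limma surgery effect of -0.30 ± 0.12 (SE; adjusted p = 0.977). Ndufb3 had a night difference of -0.10 in non-HPX and -0.41 in HPX.

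Ndufs5, an accessory subunit on the intermembrane-space side, ran against most of complex I in 2 comparisons. It was among 8 of 31 genes higher at night in HPX and among 5 of 31 higher in HPX at ZT14. At night in non-HPX it was lower (-0.20), as were most genes of the complex. It read 5.90, 5.70, 6.03 and 6.30, with both HPX arrays above both non-HPX arrays, and it reached the expression floor only on the HPX arrays. HPX minus non-HPX was 0.13 at ZT2 and 0.60 at ZT14 (1.52-fold), with a limma surgery effect of 0.36 ± 0.13 (SE; adjusted p = 0.916). A second probeset, which the annotation assigns to Ndufs5 and its pseudogene together and which the rule leaves out, read 8.46, 8.07, 8.17 and 8.20. That probeset gave -0.29 at ZT2 and 0.13 at ZT14, so the 1.52-fold difference was not seen there. Its night difference was -0.39 in non-HPX and 0.02 in HPX, beside -0.20 and 0.27 for the single-gene probeset.

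Among the 6 expressed catalytic core subunits of complex I no difference reached 1.2-fold, and the widest was Ndufs1 at -0.26 in HPX at ZT14. The core had night medians of -0.115 in non-HPX and -0.099 in HPX, beside -0.098 and -0.155 for the accessory subunits. HPX minus non-HPX was -0.061 at ZT2 and -0.008 at ZT14 for the core, beside -0.045 and -0.103. Ndufs7, which carries the last iron-sulfur cluster before ubiquinone, read 10.31, 10.13, 10.12 and 10.29, with a night difference of -0.18 in non-HPX and 0.17 in HPX. Ndufs8, another iron-sulfur subunit, was lower at night in both states (-0.15 and -0.19) and lower in HPX at both times (-0.16 and -0.19). Ndufv1, which binds NADH and flavin, differed by -0.17 at night in non-HPX and -0.08 in HPX. Of the accessory subunits, Ndufa7 had the lowest night difference of complex I in non-HPX (-0.21) and Ndufab1, the mitochondrial acyl carrier protein, the highest (0.11, and 0.09 in HPX). Ndufa6 was the highest of the complex for HPX minus non-HPX at ZT2 (0.25) and Ndufa8 the lowest (-0.28). The Ndufa8 value averages a dimmer probeset at -0.39 and a brighter one at -0.18, and Ndufb10 at -0.23 lay below the brighter one. Ndufa2 was lower in HPX at both times (-0.19 and -0.31).

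Complex II, the succinate dehydrogenase that also belongs to the citric acid cycle, had all 4 subunits expressed and a night median in HPX that lay above 0 in the values as deposited. Its median night difference was -0.043 in non-HPX and 0.048 in HPX, the second of which turned to -0.013 under centring. HPX minus non-HPX had a median of -0.126 at ZT2, or -0.031 under centring, and -0.034 at ZT14. Sdhc, a membrane anchor, read 8.22, 7.96, 7.88 and 8.04. Its non-HPX ZT2 array was the highest, giving a night difference of -0.26 in non-HPX and 0.16 in HPX, and HPX minus non-HPX of -0.34 at ZT2 and 0.08 at ZT14. The flavoprotein Sdha read 10.48, 10.44, 10.30 and 10.39, the iron-sulfur subunit Sdhb 8.62, 8.57, 8.66 and 8.55, and the other anchor Sdhd 8.37, 8.47, 8.30 and 8.30. Sdha, Sdhb and Sdhd thus spanned at most 0.18 over the arrays, and the limma adjusted p of each complex II gene was at least 0.951 for time.

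Complex III hands electrons from ubiquinol to cytochrome c, and its members were grouped as core genes (Uqcrc1, Uqcrc2 and Uqcrfs1) and small subunits. The cytochrome c1 gene Cyc1 lies outside the rule and was counted with the electron carriers. Its night difference was -0.29 in non-HPX and 0.08 in HPX. The complex as a whole, with 7 expressed genes, had median night differences of -0.041 in non-HPX, which turned to 0.001 under centring, and -0.130 in HPX. In HPX the 3 core genes had a median night difference of -0.039 and the 4 small subunits -0.208. At ZT14 HPX minus non-HPX was -0.009 for the core and -0.214 for the small subunits, all 4 of which were below 0; both of these comparisons use the HPX ZT14 array. The order was the other way at night in non-HPX (core -0.051, small -0.019) and at ZT2 (core -0.088, small 0.010). The night differences in HPX overlapped, from -0.13 to 0.21 in the core and from -0.31 to -0.07 in the small subunits, and the parts were not tested against each other. Uqcrq, a small ubiquinone-binding subunit, read 7.08, 6.97, 6.88 and 6.60, so that both HPX arrays were below both non-HPX arrays. Its HPX minus non-HPX difference was -0.20 at ZT2 and -0.38 at ZT14, with a limma surgery effect of -0.29 ± 0.11 (SE; adjusted p = 0.977). Uqcrb read 10.54, 10.51, 10.55 and 10.23, with the HPX ZT14 array alone low. The core protein Uqcrc1 read 8.91, 8.87, 8.74 and 8.96, with a night difference of -0.04 in non-HPX and 0.21 in HPX. The Rieske iron-sulfur protein Uqcrfs1 was lower at night by both pairs (-0.16 and -0.13). Uqcr11 and the hinge protein Uqcrh stayed between -0.15 and 0.05 in all 4 comparisons.

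Complex IV, cytochrome c oxidase, passes electrons to oxygen. Its 12 expressed genes of 17 measured had median night differences of -0.085 in non-HPX and -0.014 in HPX, and HPX minus non-HPX of -0.025 at ZT2 (0.070 under centring) and -0.064 at ZT14. The night median in HPX was -0.215 when the probeset of highest mean stood for each gene, since Cox5b and Cox7b each average a bright and a dim probeset that disagree. Cox5b had the highest night difference of the complex as an average, 0.20 and 0.17, but its bright probeset near 9.5 gave -0.11 and -0.18 and only the dim one, between 4.43 and 4.95, gave 0.50 and 0.51. Cox7b's bright probeset gave -0.42 at night in HPX and its dim one 0.43. Cox4i1, a regulatory subunit, read 10.12, 10.11, 10.13 and 10.12, the flattest member of all. Cox5a read 9.14, 8.86, 8.84 and 8.92, with the non-HPX ZT2 array alone high. Cox7c differed by 0.03 at night in non-HPX and -0.35 in HPX.

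Of the tissue-restricted isoforms of complex IV, 2 of 7 measured reached the floor. Cox6a2, the heart and muscle form of subunit 6a, read 6.43, 6.22, 6.84 and 6.15. Both night arrays lay below both day arrays and the HPX ZT2 array was the highest. The night difference was -0.21 in non-HPX and -0.68 in HPX (1.61-fold lower), and HPX minus non-HPX was 0.41 at ZT2 and -0.06 at ZT14. The limma time effect was -0.45 ± 0.13 (SE; adjusted p = 0.317). Its general counterpart Cox6a1 read 11.65, 11.66, 11.49 and 11.64, a night difference of 0.02 and 0.15. Cox7a1, the muscle form of subunit 7a, read 6.12, 5.77, 5.80 and 5.86 and passed the floor on the non-HPX ZT2 array only. The general form Cox7a2 was lower at night in both states (-0.13 and -0.29) and had the lowest HPX minus non-HPX of the complex at ZT14 (-0.20). Cox7a2l, which joins complexes III and IV into supercomplexes, read 7.39, 7.25, 7.53 and 7.19, both night arrays below both day arrays. Cox8a differed by 0.03 and -0.03 at night and by -0.14 and -0.19 between HPX and non-HPX. Cox4i2, Cox6b2, Cox7b2, Cox8b and Cox8c stayed below the floor on every array, with highest values of 5.50, 5.39, 3.71, 4.62 and 4.01.

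Ndufa4, named as a complex I subunit but assigned to complex IV in later structural work, was kept apart from both medians. It read 10.25, 10.17, 10.24 and 10.02, with the HPX ZT14 array lowest (night difference -0.07 in non-HPX and -0.22 in HPX). Its relative Ndufa4l2 was below the floor.

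Complex V is the ATP synthase. Over 16 expressed genes the median night difference was -0.082 in non-HPX and -0.072 in HPX, and HPX minus non-HPX was -0.068 at both times, of which the ZT2 value turned to 0.026 under centring. The catalytic F1 part with its central stalk (5 genes) had a night median of -0.082 in non-HPX and -0.017 in HPX, while the 4 small membrane subunits had -0.079 and -0.292. The median over genes of the night difference in HPX minus that in non-HPX was 0.260 for the F1 part and -0.105 for the small membrane subunits. It was 0.07 over all expressed genes. The F1 genes were split, with 0.26 for Atp5a1, 0.27 for Atp5b and Atp5d, 0.01 for Atp5e and -0.12 for Atp5c1. Centring shifts night differences by -0.061 in HPX and 0.042 in non-HPX, and so lowers all of these values alike. No test was made between these parts, since genes are not replicates of a condition.

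In the F1 part, Atp5a1 (the alpha subunit) read 10.85, 10.85, 10.78 and 11.04, with the HPX ZT14 array the highest. Atp5b, the catalytic beta subunit, read 11.58, 11.43, 11.45 and 11.56, with a night difference of -0.16 in non-HPX and 0.12 in HPX. Among the small membrane subunits, Atp5mpl read 8.69, 8.36, 8.44 and 8.08. Both its night arrays were below both day arrays (night differences -0.33 and -0.37) and both its HPX arrays below the non-HPX array of the same time (-0.24 and -0.28). Its limma effects were -0.35 ± 0.11 for time (SE; adjusted p = 0.369) and -0.26 ± 0.11 for surgery (SE; adjusted p = 1.0). Atp5l, subunit g, which helps ATP synthases pair in the cristae, read 9.81, 9.74, 10.01 and 9.56. Its night difference was -0.07 in non-HPX and -0.45 in HPX. Atp5k, subunit e, was lower in all 4 comparisons, between -0.22 and -0.09. The stalk subunit Atp5pb differed by -0.19 and -0.17 at night and by 0.06 and 0.09 between HPX and non-HPX, and Atp5j by -0.06 and -0.27 at night.

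The c ring, the rotor that protons turn, is encoded by 3 genes for the same mature protein. Atp5g1 read 6.64, 6.77, 6.63 and 6.70, Atp5g2 9.97, 9.89, 9.91 and 9.89, and Atp5g3 8.47, 8.45, 8.37 and 8.39. The largest of their 12 differences was 0.14, for Atp5g1 at night in non-HPX.

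**Figure D3:**
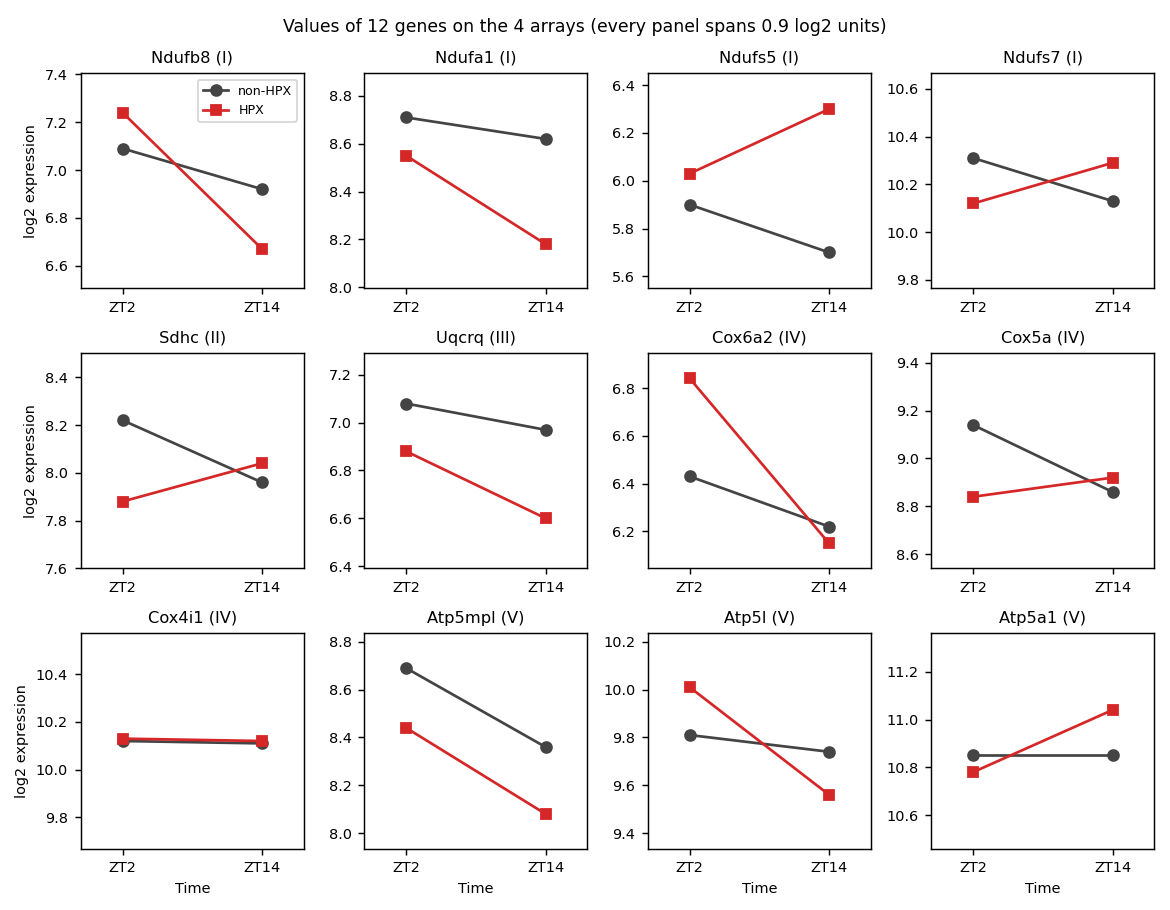
Log2 expression of 12 members against time, 1 point per array, with non-HPX as grey circles and HPX as red squares; every panel spans 0.9 log2 units, and lines join the 2 arrays of a surgical state. Ndufb8, Cox6a2 and Atp5mpl have both night values below both day values, Ndufs5 is highest in HPX at ZT14 (6.30), and Cox4i1 is flat between 10.11 and 10.13.

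The rule also takes in assembly factors of complexes I and II. The 8 complex I factors Ndufaf1 to Ndufaf8 had median night differences of -0.016 in non-HPX and -0.002 in HPX, with HPX minus non-HPX of -0.050 at ZT2 and -0.101 at ZT14. Ndufaf3 was higher at night in both states (0.11 and 0.06) and lower in HPX at both times (-0.21 and -0.26). Of the complex II factors Sdhaf2, Sdhaf3 and Sdhaf4 were expressed, with median night differences of 0.023 in non-HPX and -0.080 in HPX; Sdhaf3 was higher in HPX at both times (0.16 and 0.06), as was Ndufaf6 (0.05 and 0.14).

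**Figure D4:**
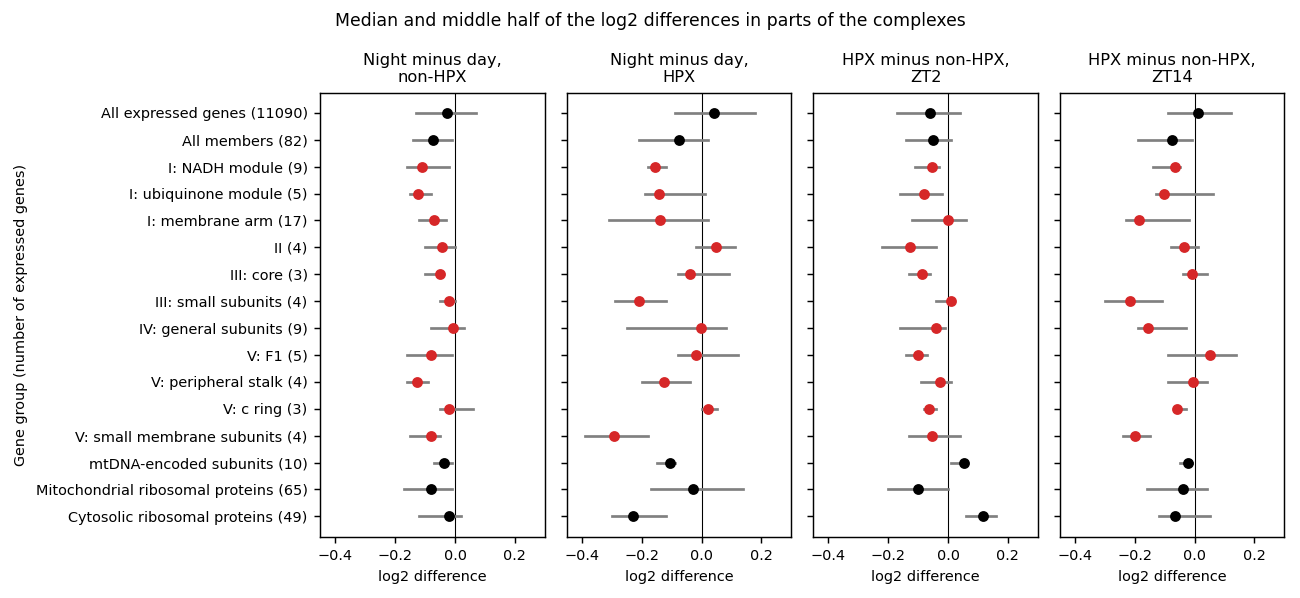
Medians (points) and interquartile ranges (bars) of the log2 differences for all expressed genes, all members, parts of the complexes (red) and 3 comparison groups, with the number of expressed genes in brackets and 1 panel per comparison. The small membrane subunits of complex V reach -0.292 and the small subunits of complex III -0.208 at night in HPX, near the cytosolic ribosomal proteins at -0.229. Several ZT2 medians below 0 change sign when arrays are centred. So do the night medians of all expressed genes and the c ring in both states, and of complex II in HPX. In non-HPX the night medians of the complex III small subunits, general complex IV subunits, mtDNA-encoded subunits and cytosolic ribosomal proteins turn too.

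Of the subunits encoded in mitochondrial DNA 10 were measured. Lower at night were 8 of 10 in non-HPX (background 57.9%) and 10 of 10 in HPX (background 41.2%). Their medians were -0.037, which turned to 0.005 under centring, and -0.105. Centring shifts night differences in non-HPX by 0.042, so not all 8 would stay below 0, for example CYTB at -0.01. HPX minus non-HPX was 0.052 at ZT2 and -0.023 at ZT14. ND6, the subunit encoded on the other strand, read 10.63, 10.73, 10.82 and 10.59, while COX1 read 13.15, 13.06, 13.21 and 13.08. None of the 10 was 1.2-fold apart, and the smallest limma adjusted p for time was 0.877.

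Other genes around the chain were mixed in direction at night in HPX. The 39 expressed genes for electron carriers and chain assembly had medians of -0.045 in non-HPX and 0.033 in HPX, the second turning to -0.029 under centring and -0.015 under cyclic loess, and 0 passed the limma test for time or surgery. The citric acid cycle (15 genes) had -0.079 and -0.010, and glycolysis (12 genes) -0.083 and 0.092. At ZT2 all 12 glycolytic genes were lower in HPX (background 65.6%), with a median of -0.192, or -0.098 under centring, and 0 were called. Centring shifts differences at ZT2 by 0.095, so not all 12 would stay below 0, for example Hk1 at -0.03. In each of these lists 0 genes were 1.5-fold apart in any of the 4 comparisons. Of the regulators of mitochondrial gene expression, 13 of 15 measured were expressed and 0 were called. Ppargc1a, the coactivator PGC-1alpha, read 8.14, 8.01, 8.13 and 8.03, Nrf1 6.65, 6.68, 6.64 and 6.79, and Gabpa 7.05, 7.08, 6.94 and 7.04. Esrra read 6.44, 6.65, 6.89 and 6.44, a night difference of 0.20 in non-HPX and -0.44 in HPX. Tfam, which packages and transcribes mitochondrial DNA, read 6.39, 6.52, 6.62 and 6.75, both HPX arrays above the non-HPX array of the same time (0.23 and 0.23; limma adjusted p for surgery = 1.0).

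Ribosomal protein genes give a comparison with other large sets of short, abundant RNAs. The 49 expressed cytosolic ribosomal genes had a night median of -0.021 in non-HPX, which turned to 0.021 under centring, and -0.229 in HPX, with 44 of 49 below 0 in HPX. HPX minus non-HPX was 0.116 at ZT2 and -0.067 at ZT14. The 65 mitochondrial ribosomal genes had -0.082 and -0.030 at night and -0.099 and -0.038 between HPX and non-HPX. Lower night values in HPX were thus seen outside the respiratory chain as well. General neuron markers, 10 of 11 expressed, went the other way there, with medians of -0.175 at night in non-HPX, 0.115 at night in HPX, -0.198 for HPX minus non-HPX at ZT2 and 0.098 at ZT14, and a summed log2 level of 13.45 and 13.32 in non-HPX and 13.31 and 13.39 in HPX. The part of these neuron markers in the member values was not tested either.

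Members were also set side by side with and without each promoter motif. The 11 expressed members with an NRF1 core had night medians of -0.041 in non-HPX and -0.061 in HPX, against -0.080 and -0.077 for the 59 without it. HPX minus non-HPX at ZT14 was -0.150 with and -0.075 without. The 6 members with an E-box had night medians of -0.121 and -0.116, against -0.072 and -0.072 for the 64 without. Those with the ETS motif (21) had -0.047 and -0.068, against -0.084 and -0.081 for the 49 without. These are descriptions of a few genes on 4 arrays, without a test.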

How the data were processed

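RNA of laser-dissected SCN was labelled with the WT PLUS kit from 5.5 µg of fragmented cDNA, per the labels' protocols. The deposited table holds log2 values that the authors made by RMA with the Affymetrix Expression Console program (per the submitters' processing notes, which name no version). Of 41345 probesets 23521 named 1 gene, 1814 several and 16010 none in the platform annotation. The single-gene probesets were looked up in RefSeq (GRCm38.p6), which held the gene of 23328 of the 23521 and of all 103 member probesets, and 0 symbols changed. A gene's value is the mean of its single-gene probesets (10 members have 2). A gene was called expressed when its highest value was at least 6.02, the median over genes of that highest value. Members at least 1.2-fold (0.263 on the log2 scale) or 1.5-fold (0.585) apart were counted beside the share of all expressed genes. The additive model (lmFit and eBayes, two-sided, Benjamini-Hochberg, threshold 0.05) was fitted with limma 3.58.1 in R 4.3.3 and tested on simulated data; eBayes estimated 8.772 prior degrees of freedom, so the error comes mainly from a variance pooled over genes. The number of arrays limits the precision.

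The members and lists were chosen with earlier results of these data known. The handling of Sdhaf genes (members by the letter of the rule, kept out of complex II), of pseudogenes and of Ndufa4, the motifs searched, the promoters shown, and the ribosomal groups were chosen after the values were available. Named genes were called members, the highest and lowest of each complex in each comparison, members past 1.5-fold, the 5 largest mean differences of 1 sign in each direction, the isoform families, complex II, Ndufa4 and 5 regulators; other members are named for their role, after their values were seen. Alternatives were cyclic loess, centring on the expressed genes' median, no floor, a floor at the 75th percentile (7.46), the probeset of highest mean, subunits only, and an intensity trend in limma.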

Additional observations from a re-analysis of the deposited data

Results flagged for a closer look

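Effects of opposite sign were looked for between the surgical states (night minus day) and between the times (HPX minus non-HPX). With 1 array per group, none of these differences was tested. For single members a bound of 1.2-fold on each side gave none, and the bound of 1.1-fold used here was chosen after that was seen. Such opposite pairs were held by 3 of 82 members (3.66%, beside 8.33% of all expressed genes) for the night difference and by 5 of 82 (6.1%, beside 11.6%) for the HPX difference; the shares were not tested against each other.

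The median of complex II was -0.043 at night in non-HPX and 0.048 in HPX. Ndufs5 differed by -0.20 at night in non-HPX and 0.27 in HPX, Ndufs7 by -0.18 and 0.17, and Sdhc by -0.26 and 0.16. Ndufs5 reached the floor on the HPX arrays only. The probeset shared by Ndufs5 and its pseudogene gave -0.39 and 0.02 at night, so the rise of 0.27 was not seen there. For HPX minus non-HPX, Atp5l gave 0.21 at ZT2 and -0.17 at ZT14, Cox7c 0.19 and -0.19, Ndufa13 0.14 and -0.36, Ndufb8 0.15 and -0.26, and Ndufs7 -0.19 and 0.16.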

How the results depend on the processing

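Of 196 recomputed group values 172 kept their direction and moved by less than 0.062, the median residual SD of the members, or for counts by at most 1.5 times; 16 moved and 8 reversed. Centring shifts all differences alike, by 0.042 (night, non-HPX), -0.061 (night, HPX), 0.095 (HPX minus non-HPX, ZT2) and -0.009 (ZT14). It reversed the ZT2 medians of all members (0.046) and of complexes I (0.049), III (0.057), IV (0.070) and V (0.026), moved that of II to -0.031, and reversed the night medians of complex II in HPX (-0.013) and III in non-HPX (0.001). It also left 28 members below 0 at ZT2, 2 past 1.2-fold at night in non-HPX and 3 past 1.5-fold at night in HPX. Cyclic loess gave 3 there too and reversed complex I at ZT2 (0.004). Without a floor, 9 members were past 1.2-fold and 1 past 1.5-fold at night in non-HPX, 8 past 1.2-fold at ZT2 and 2 past 1.5-fold at ZT14. The stricter floor, with fewer genes, left 10 past 1.2-fold and 0 past 1.5-fold at night in HPX, 3 past 1.2-fold at ZT2 and 0 past 1.5-fold at ZT14, with medians of -0.053 for complex III at night in HPX and -0.089 for IV at ZT2. With the probeset of highest mean, complex IV at night in HPX was -0.215. In every setting 0 members were called by limma, with 2 to 5 at an unadjusted p under 0.05 for time and 0 to 5 for surgery. Calls over all genes ranged from 1 without a floor to 121 under centring for time, and from 0 to 25 for surgery, beside 60 and 15; other causes were not tested. Of 712 values of 38 named genes 670 stayed within that SD, 42 moved and 0 that were past 1.2-fold reversed. No paired analysis was possible because replicate numbers pair nothing with 1 array per group, and no replicate could be left out; the additive model itself compares times within a state and states within a time.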

Other observations

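Probesets that the annotation assigns to a member together with another gene fall outside the rule, and 10 were found. Several add subunits with no single-gene probeset here. Cox6c, a complex IV subunit, shares its bright probeset with Gm6265, which read 10.58 and 10.52 in non-HPX at ZT2 and ZT14 and 10.61 and 10.20 in HPX, a night difference of -0.06 and -0.42. Ndufs6, with Ndufs6b, read 8.75, 8.89, 8.77 and 8.60 in the same order on its brighter probeset, so that HPX minus non-HPX was 0.03 at ZT2 and -0.28 at ZT14. Ndufb4, with Ndufb4b and Ndufb4c, differed by -0.09 at night in non-HPX and -0.24 in HPX, and Uqcr10, with Gm6293, by -0.06 and -0.20. A probeset of Uqcrb and Gm10767 gave -0.53 and -0.40 at night, and a probeset of Ndufs1 and Ino80dos -0.50 and -0.33, while the single-gene probesets gave -0.03 and -0.31 for Uqcrb and 0.03 and -0.16 for Ndufs1. The HPX array at ZT14 held the lowest value on 7 of the 10 probesets, the non-HPX array at ZT14 on 2 (those of Ndufs1 and of Ndufs5) and the non-HPX array at ZT2 on 1, the dimmer one of Cox6c.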
